A study of Homo sapiens with 21 samples.

Results

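The genes described here are 39 genes of the kinetochore and the spindle checkpoint, followed in human hTERT-HPNE cells after oxidative stress or DNA damage. They were chosen by gene symbol, from the protein complexes they belong to. All 39 had a row among the 23368 genes listed, and all 39 were among the 19694 genes that were not at 0 in every library and were tested. By role they comprised 12 genes of the inner kinetochore, 8 of the KMN network, 7 of the outer corona and the SKA complex, 6 of the spindle checkpoint and 6 of the chromosomal passenger complex and the shugoshins.

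hTERT-HPNE is a nontransformed pancreatic cell line immortalized with telomerase. Its RNA was sequenced in 7 groups of 3 biological replicates. The groups were untreated cells, taken at 0 h, cells taken 4, 8 or 24 h after 300 µM hydrogen peroxide (H2O2), an oxidant, and cells taken 4, 8 or 24 h after 400 ng/ml neocarzinostatin (NCS), which breaks both strands of DNA. The medium was replaced when the agents were added, and untreated cells were taken at 0 h alone, so that the effect of an agent and that of time in fresh medium cannot be told apart in a comparison with untreated cells. No value for untreated cells at 4, 8 or 24 h was analysed here. Both agents were compared with the same 3 untreated libraries. In a population of cells, fewer cells passing through mitosis and less RNA in each cell cannot be told apart either.

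The kinetochore is the protein structure built on the centromere of each chromosome that holds the ends of spindle microtubules in mitosis. Its inner layer sits on nucleosomes that carry CENPA, its outer layer contacts microtubules, and kinetochores without microtubules switch on the spindle checkpoint, which holds back CDC20, the activator of the anaphase-promoting complex. Many of these genes are transcribed mainly in G2 and mitosis, and several are known to be repressed when cells leave the cycle.

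Values were rLog values, regularized log2 values that the authors normalized for library size. Read counts cannot be recovered from them, and because sequencing depth is therefore unknown, it limits the precision by an amount that could not be calculated. They are not corrected for gene length, and levels are therefore compared between groups and not between genes. Differences are differences of rLog means, with the SE of the limma fit after ±, and a gene is said to have risen or fallen where its Benjamini-Hochberg adjusted p-value was under 0.05. Differences over 1 are also counted, because the study's methods used that limit, but rLog values shrink differences and the limit is strict here. The medians of the 21 libraries lay between 7.145 and 7.189. Shares of all genes refer to the 19694 genes tested, which were not matched to the members for level. Their values reached down to −2.314, whereas the lowest untreated mean of a member was 6.64, for CENPP. The line's label was checked with marker genes. In untreated cells NES, VIM, KRT18 and KRT8 were above the library medians (12.12, 17.05, 11.64 and 7.78), and SOX9 was below them (5.93). KRT19, a keratin of pancreatic ducts, was near 0 at 0.60 ± 0.046 (SD, n = 3). Of 8 markers of other pancreatic, immune or endothelial cells, INS, PRSS1 and CD3E were listed at 0 in every library, and the highest mean in untreated cells was 2.04, for PECAM1.

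One library stood apart for these genes. In H2O2-treated cells at 8 h, replicate 2 had the highest value of its group for 35 of 39 members and the lowest for 1, and it exceeded the mean of replicates 1 and 3 by a median of 0.23 (range −0.04 to 0.63). Over all genes tested it was highest for 30.5% and lowest for 46.8%, with a median difference of −0.0011. Results at 8 h after H2O2 are given with and without it.

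By 24 h nearly the whole set had fallen after either agent. After H2O2 all 39 members were lower than in untreated cells, with a median difference of −1.36 (range −2.14 to −0.20), whereas 19.9% of all genes tested were lower. After NCS 38 of 39 were lower, with a median of −1.39 (range −2.58 to 0.01), against 18.4% of all genes. The median of all genes was −0.00034 and −0.00014 in these comparisons. Differences over 1 were more selective. They were found for 28 members after H2O2 and for 31 after NCS, of 254 and 270 such genes in the whole table, or 1.29% and 1.37% of all genes. The 28 were lower by over 1 after both agents, and CENPH, CENPN and CENPW passed the limit after NCS alone. The limit runs through a continuous distribution. After H2O2 CENPL was just inside it at −1.001 and CENPN just outside at −0.993, and after NCS CENPL was just inside at −1.019 and CENPQ just outside at −0.939.

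The fall was already present at 4 h, and its size differed between genes. At 4 h after H2O2, 27 members were lower, with 19.7% of all genes lower, and the median was −0.30. None was lower by over 1, a size found in 8 genes in all (0.0406%). MIS12 and CENPN were higher at that time, when 26.2% of all genes were higher. At 4 h after NCS, 31 members were lower, with 9.72% of all genes lower, and the median was −0.38. In this group 9 members were lower by over 1, of 25 such genes in the whole table (0.127%). These were CENPA, NDC80, CENPE, CENPF, BUB1B, TTK, CDC20, CDCA8 and SGOL2. They encode, among others, a histone variant, a microtubule-binding subunit, a kinesin motor and the kinase TTK.

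At 8 h nearly all members were lower after either agent. After H2O2, 38 members were lower and 10 lower by over 1, with 18.6% and 0.198% of all genes doing so, and the median was −0.58. Without replicate 2 the counts were 37 and 11 and the median −0.66. After NCS, 37 members were lower and 12 lower by over 1, with 13.3% and 0.274% of all genes doing so, and the median was −0.57. The 10 genes past the limit after H2O2 were BUB1, BUB1B, CDC20, CDCA8, CENPA, CENPE, CENPF, NDC80, NUF2 and SGOL2, and the 12 after NCS were these with BIRC5 and TTK.

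No member rose at 8 or 24 h after H2O2 or at any time after NCS in the limma fit, and none was higher at an unadjusted p under 0.05 either. The share of all genes that rose was 18.8% and 20.2% at 8 and 24 h after H2O2, and 7.47%, 10.5% and 19.6% at 4, 8 and 24 h after NCS.

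**Figure D1:**
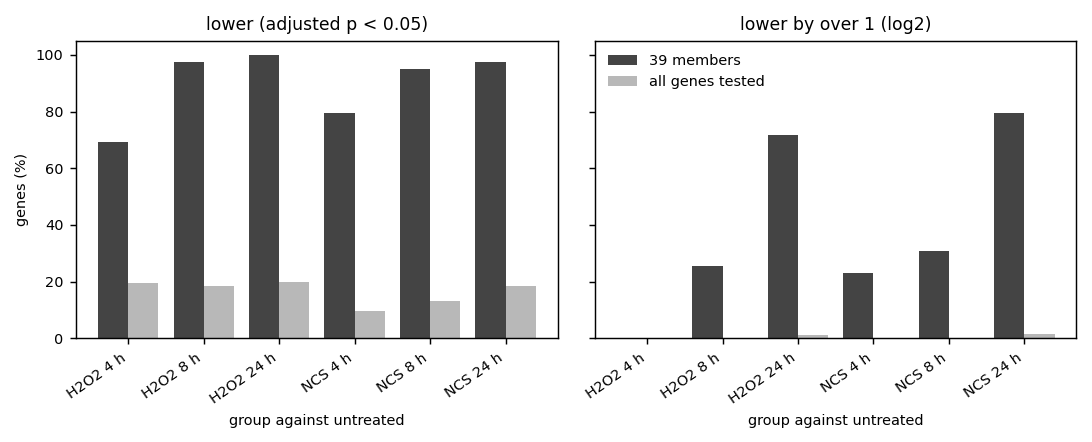
Share of the 39 members (dark bars) and of all genes tested (light bars) that were lower than in untreated cells (left) or lower by over 1 on the log2 scale (right), in percent, for each treated group. The members' share of falls was 69.2% at 4 h and 100% at 24 h after H2O2, and 79.5% and 97.4% after NCS.

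**Figure D2:**
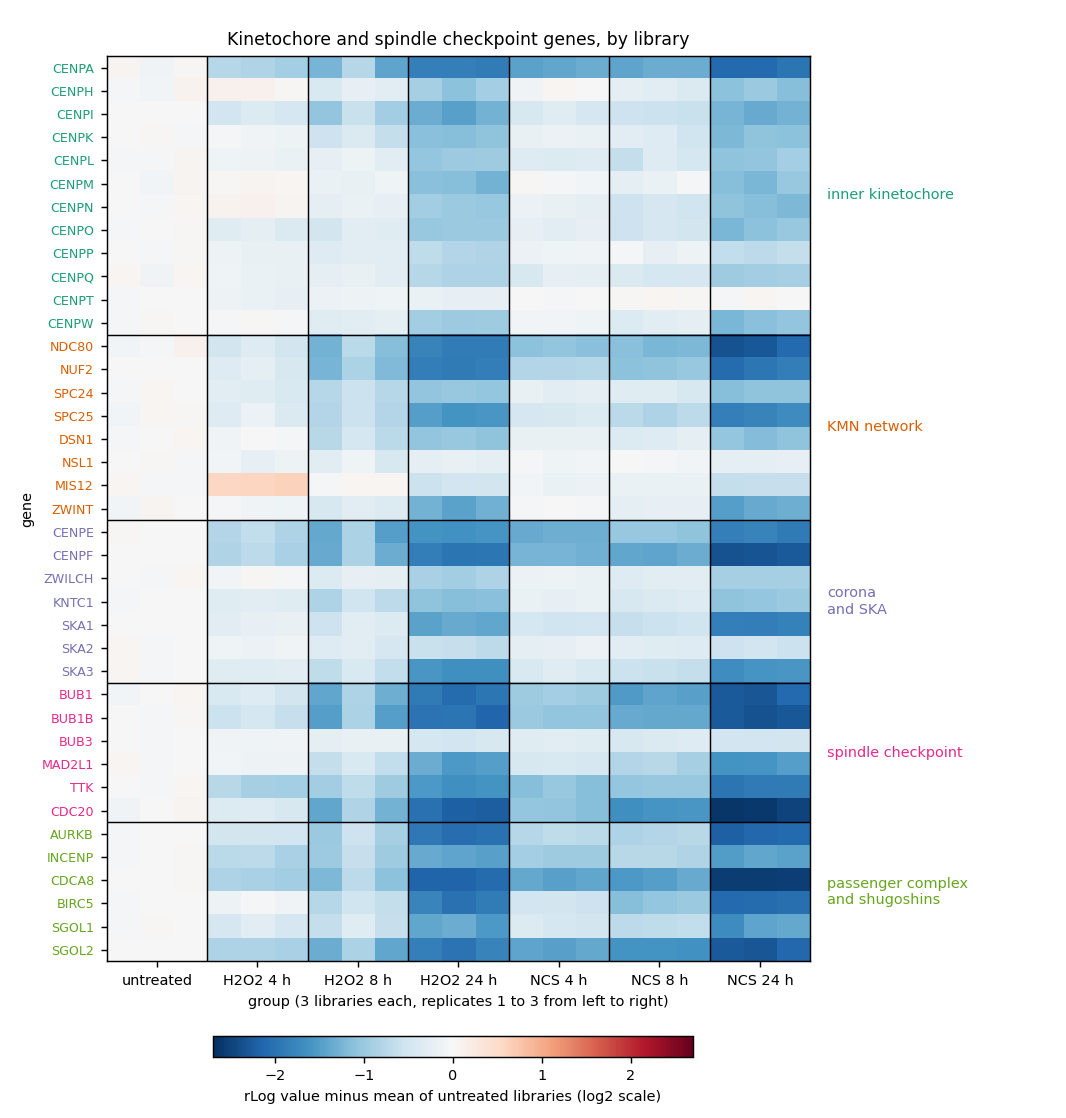
Every member (rows, coloured by role) in every library (columns, 3 per group), as the rLog value minus the mean of the untreated libraries, on the log2 scale. Blue deepened with time after both agents, MIS12 was red at 4 h after H2O2, CENPT stayed pale throughout, and the middle column of the H2O2 8 h group was paler than its neighbours.

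Promoter sequences are shown for the members lower by over 1 at 4 h after NCS, as the genes with the largest early falls, and for CENPT, which did not change then. They cover 8 of the 9 such genes, since the RefSeq table held none for TTK. The sequences are the 130 bases before the first start in RefSeq (GRCh38.p14), written 5′ to 3′ on the strand of the gene. Capitals mark 2 kinds of short motif, found on either strand. TTTGAA and TTTAAA are letters of the cell cycle genes homology region (CHR), an element known from promoters of genes active in G2 and mitosis, and CCAAT, which reads ATTGG on the other strand, is the box bound by NF-Y. In CDCA8 one match of each kind overlap. The windows of NDC80, SGOL2 and CENPT hold neither motif, and the CHR-type match counted for SGOL2 lies before its second start. The positions are chr2:26785926-26786055 (+) for CENPA, chr18:2571427-2571556 (+) for NDC80, chr4:103198344-103198473 (−) for CENPE, chr1:214603065-214603194 (+) for CENPF, chr15:40160939-40161068 (+) for BUB1B, chr1:43358851-43358980 (+) for CDC20, chr1:37692386-37692515 (+) for CDCA8, chr2:200526012-200526141 (+) for SGOL2 and chr16:67847694-67847823 (−) for CENPT.
CENPA: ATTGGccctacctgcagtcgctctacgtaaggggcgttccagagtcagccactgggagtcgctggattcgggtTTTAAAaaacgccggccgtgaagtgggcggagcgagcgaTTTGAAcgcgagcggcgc
NDC80: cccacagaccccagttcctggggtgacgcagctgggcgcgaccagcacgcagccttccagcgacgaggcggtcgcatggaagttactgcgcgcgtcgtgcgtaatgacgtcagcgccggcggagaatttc
CENPE: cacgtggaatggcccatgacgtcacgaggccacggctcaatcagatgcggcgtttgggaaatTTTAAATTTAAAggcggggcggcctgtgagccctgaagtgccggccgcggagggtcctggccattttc
CENPF: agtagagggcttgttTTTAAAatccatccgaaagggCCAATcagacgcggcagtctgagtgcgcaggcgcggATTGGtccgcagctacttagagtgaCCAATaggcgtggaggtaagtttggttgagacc
BUB1B: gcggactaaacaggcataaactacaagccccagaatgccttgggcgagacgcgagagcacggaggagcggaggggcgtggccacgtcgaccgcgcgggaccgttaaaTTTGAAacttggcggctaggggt
CDC20: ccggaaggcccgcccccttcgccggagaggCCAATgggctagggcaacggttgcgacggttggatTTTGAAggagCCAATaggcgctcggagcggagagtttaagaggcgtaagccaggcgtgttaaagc
CDCA8: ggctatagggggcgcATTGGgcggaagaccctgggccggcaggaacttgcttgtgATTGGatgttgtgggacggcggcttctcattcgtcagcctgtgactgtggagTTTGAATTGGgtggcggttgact
SGOL2: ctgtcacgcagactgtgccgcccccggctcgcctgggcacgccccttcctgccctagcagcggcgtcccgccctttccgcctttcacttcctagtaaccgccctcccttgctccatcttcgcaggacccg
CENPT: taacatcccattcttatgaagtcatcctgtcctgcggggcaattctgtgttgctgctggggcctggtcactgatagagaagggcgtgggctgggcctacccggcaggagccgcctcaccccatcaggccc

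The RefSeq table held 38 promoters for 32 of the 39 members. CENPH, CENPL, CENPM, KNTC1, BUB3, TTK and BIRC5 had none. In the 250 bases before the start, a CHR-type match was present in 11 of the 38 (28.9%) and in 21.9% of all 35116 promoters of the same length. In the last 100 bases the shares were 23.7% and 8.24%. A CCAAT match was present in 60.5% of member promoters and 32.0% of all promoters, and in the last 100 bases in 44.7% and 18.1%. The 10 genes with a CHR-type match were CENPA, SPC25, ZWINT, CENPE, CENPF, BUB1B, CDC20, INCENP, CDCA8 and SGOL2. Their median difference from untreated cells at 4 h after NCS was −1.18 (range −1.42 to −0.04), and that of the 22 genes without a match was −0.25 (range −1.10 to −0.01). At 24 h the medians with and without a match were −2.14 and −1.14 after NCS, and −1.88 and −1.05 after H2O2. For CCAAT the medians at 4 h after NCS were −0.42 for 20 genes with a match and −0.40 for 12 without. These are descriptions of letters and medians, with no test, and the ranges of the groups overlap. ZWINT, for example, has a CHR-type match and differed by −0.04 at 4 h after NCS.

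**Figure D3:**
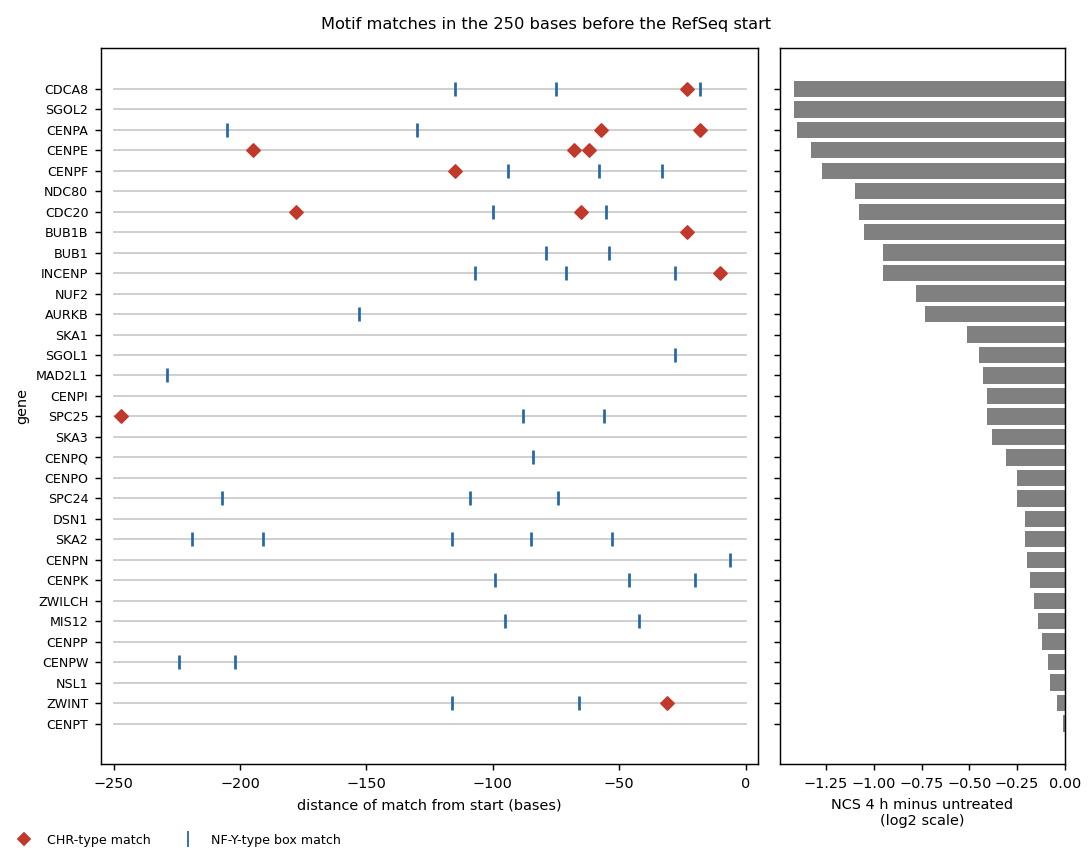
Positions of motif matches in the 250 bases before the first RefSeq start of each of 32 members (left, distance in bases from the start to the first base of the match) beside the difference of NCS at 4 h from untreated cells (right, log2 scale). Genes are sorted by that difference, and red diamonds, the CHR-type matches, lie mostly among the genes with the largest falls, which reach −1.42.

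The inner kinetochore comprises CENPA, the histone H3 variant that marks centromeres, and the constitutive centromere-associated proteins that bind it. At 24 h all 12 genes had fallen after H2O2 (median −1.0) and 11 after NCS (median −1.13), and 6 and 9 of them were lower by over 1. CENPA was 8.23, 8.07 and 8.19 in the untreated libraries and 6.71, 6.77 and 6.82 at 4 h after NCS. It was nearly the same at 8 h, with 6.75, 6.82 and 6.83, and reached 6.06, 6.07 and 6.19 at 24 h. After H2O2 it was 7.4, 7.35 and 7.25 at the 4 h point, 6.90, 7.4 and 6.73 at the 8 h point and lastly 6.31, 6.31 and 6.27 at 24 h. All treated libraries lay below all untreated ones, and replicate 2 at 8 h after H2O2 was at the level of the 4 h group. The differences from untreated cells at 4, 8 and 24 h were −1.40, −1.36 and −2.06 after NCS and −0.83, −1.15 and −1.87 after H2O2 (each ± 0.11, limma, largest adjusted p = 4.43e-06).

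CENPT, which links centromeric DNA to the outer kinetochore, was the exception of the set. It was 10.98, 11.01 and 11.02 in untreated libraries and 10.98, 11.06 and 10.99 at 24 h after NCS, and these groups overlapped. The difference was 0.01 ± 0.02 (limma, adjusted p = 0.907), and CENPT was also not called at 4 h or 8 h after NCS. After H2O2 it was 10.86, 10.82 and 10.78 at 4 h, then 10.84, 10.86 and 10.88 at 8 h, and by 24 h it was 10.83, 10.79 and 10.79, below every untreated library. The falls were small, −0.18, −0.14 and −0.20 ± 0.02 (limma, largest adjusted p = 8.77e-05). CENPT was thus lower after H2O2 than after NCS at all 3 times, by −0.17, −0.18 and −0.21 (limma, largest adjusted p = 1.21e-05), and it was the one member of which this was true.

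CENPN, which reads the CENPA nucleosome, was one of 2 members called higher at any time. It was 10.79, 10.77 and 10.85 in untreated libraries and 10.89, 10.92 and 10.88 at 4 h after H2O2, groups that did not overlap but were close. The difference was 0.09 ± 0.03 (limma, adjusted p = 0.0336). The call was lost with library medians aligned (adjusted p = 0.0854) and without untreated replicate 1 (0.096), untreated replicate 2 (0.131), H2O2 4 h replicate 1 (0.0585) or H2O2 4 h replicate 2 (0.107). At 24 h CENPN was 9.86, 9.80 and 9.77 after H2O2 and 9.71, 9.66 and 9.60 after NCS, far below the untreated libraries, with differences of −0.99 and −1.15.

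CENPM, another inner kinetochore gene, was 8.98 ± 0.062 (SD, n = 3) in untreated cells, 9.04 ± 0.022 and 8.97 ± 0.052 at 4 h after H2O2 and NCS, and 7.80 ± 0.077 and 7.85 ± 0.098 at 24 h. Its differences at 4 h were 0.05 and −0.01 and were not called, and at 24 h they were −1.18 and −1.14. CENPH, CENPK and CENPW were likewise not called at 4 h after either agent, and at 24 h after NCS they differed by −1.08, −1.14 and −1.14. CENPI, CENPL, CENPO, CENPP and CENPQ differed by −1.3, −1.02, −1.11, −0.67 and −0.94 at that time, and of these all but CENPP were already lower at 4 h after NCS and all but CENPL at 4 h after H2O2. The call of CENPQ at 4 h after H2O2 was lost with quantile normalization (adjusted p = 0.0834) and without untreated replicate 1 or 3 or H2O2 4 h replicate 3 (0.0742 to 0.0766). Of the 12 genes, CENPA alone was lower by over 1 at 4 or 8 h.

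The KMN network is the microtubule-binding core of the outer kinetochore. NDC80, NUF2, SPC24 and SPC25 form the NDC80 complex, DSN1, NSL1 and MIS12 belong to the MIS12 complex that anchors it, and ZWINT binds the third component. At 24 h all 8 had fallen after both agents, with medians of −1.20 after H2O2 and −1.25 after NCS, and 6 were lower by over 1 in each. NDC80 was 9.95, 10.00 and 10.14 in untreated libraries. After NCS it was 8.93, 8.96 and 8.91 at the 4 h point, 8.91, 8.80 and 8.82 at the 8 h point and lastly 7.67, 7.74 and 7.94 at 24 h. After H2O2 it was 9.53, 9.69 and 9.53 at 4 h, then 8.75, 9.30 and 8.87 at 8 h, and by 24 h it was 8.23, 8.14 and 8.15. No treated library overlapped the untreated ones, and the NCS libraries lay below the H2O2 libraries at 4 and 24 h. The differences from untreated cells were −1.10, −1.19 and −2.25 ± 0.10 after NCS and −0.45, −1.06 and −1.86 ± 0.10 after H2O2 (limma, largest adjusted p = 0.00118). NUF2 and SPC25 were lower by −1.97 and −1.78 at 24 h after NCS, SPC24 by −1.11, DSN1 by −1.10 and ZWINT by −1.39.

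Within the MIS12 complex the genes did not move alike. MIS12 itself was 9.41, 9.33 and 9.33 in untreated libraries and 9.91, 9.94 and 9.97 at 4 h after H2O2. It returned to 9.33, 9.40 and 9.41 at 8 h and fell to 8.77, 8.85 and 8.87 at 24 h. After NCS it was 9.29, 9.17 and 9.20 at the 4 h point, 9.17, 9.17 and 9.18 at the 8 h point and lastly 8.72, 8.73 and 8.73 at 24 h. The H2O2 libraries at 4 h were the highest of all 21, the 8 h group overlapped the untreated libraries, and both 24 h groups lay below them. The rise was 0.58 ± 0.03 (limma, adjusted p = 2.26e-10) and passed the threshold under every alternative, between 0.565 and 0.634. At 8 h the difference was 0.02 ± 0.03 (adjusted p = 0.784), and at 24 h it was −0.53 after H2O2 and −0.63 after NCS. An exact permutation test of the 3 H2O2 libraries at 4 h against the 3 untreated ones gave p = 0.1 (two-sided), the smallest this design allows. In the annotation used here, exons of MIS12 overlap exons of DERL2 on the opposite strand, and whether reads were counted by strand is not given in the sources used here. DERL2, which lies outside the rule for named genes, was called higher by 0.12 ± 0.04 at 4 h after H2O2 and by 0.20 at 8 h. Whether the overlap affected the values of MIS12 was not tested. Such overlaps on the opposite strand exist for 10 members, CENPN and CENPT among them, and none was found on the same strand.

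NSL1 had the smallest change of the network. It was 9.24, 9.26 and 9.20 in untreated libraries, 8.98, 9.04 and 8.97 at 24 h after H2O2, and 8.96, 8.98 and 9.01 at 24 h after NCS. The 24 h libraries lay below the untreated ones, by −0.24 and −0.25 ± 0.05 (limma, adjusted p = 0.00143 and 0.00113). At 4 h and 8 h after NCS it differed by −0.08 and −0.03 and was not called. After H2O2 it was lower at both times, by −0.14 (limma, adjusted p = 0.0421) and −0.27 (0.000514), and the 4 h call was lost with quantile normalization (0.32) and without untreated replicate 1 or 2, H2O2 4 h replicate 2 or 3, NCS 4 h replicate 3, NCS 8 h replicate 2 or NCS 24 h replicate 2 (0.0502 to 0.173). DSN1, in the same complex, was not called at 4 h after H2O2 (−0.05) and was lower by −0.65 at 8 h and −1.06 at 24 h.

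The corona and SKA genes were lower at every time after NCS, all 7 of them, with medians of −0.38, −0.57 and −1.61. After H2O2, 6 were lower at 4 h and 7 at 8 and 24 h, with medians of −0.31, −0.58 and −1.40. CENPE is a kinesin that carries chromosomes to the spindle equator, CENPF binds microtubules and dynein regulators, ZWILCH and KNTC1 belong to the complex that recruits dynein, and SKA1, SKA2 and SKA3 form a complex that tracks microtubule ends. CENPF was 12.12 in all 3 untreated libraries. After NCS it was 10.87, 10.86 and 10.83 at 4 h, then 10.71, 10.70 and 10.77 at 8 h, and by 24 h it was 9.76, 9.78 and 9.85. In the H2O2 groups it was 11.31, 11.41 and 11.24, then 10.75, 11.27 and 10.79, then 10.26, 10.14 and 10.17. The NCS libraries were below the H2O2 libraries at 4 and 24 h and overlapped them at 8 h. The differences from untreated cells at 24 h were −2.33 ± 0.09 and −1.93 ± 0.09 (limma, adjusted p = 1.43e-13 and 1.94e-12).

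CENPE was 1 of 24 members not called in the step from 4 to 8 h after NCS. It was 10.78, 10.74 and 10.74 in untreated libraries, 9.39, 9.44 and 9.43 at 4 h after NCS, and 9.73, 9.73 and 9.66 at 8 h, so that the 8 h libraries lay above the 4 h ones. The step of 0.29 ± 0.10 was not called (limma, adjusted p = 0.0627). Its SE came from all 7 groups. The SD of CENPE was 0.029 and 0.041 in these NCS groups and 0.33 at 8 h after H2O2. At 24 h it was 8.90, 8.95 and 8.84. In the H2O2 libraries it was 9.97, 10.08 and 9.92 at the 4 h point, 9.38, 9.90 and 9.27 at the 8 h point and lastly 9.13, 9.12 and 9.17 at 24 h.

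SKA1 and SKA2 show the range of this group. SKA1 was 9.41, 9.40 and 9.42 in untreated libraries, 7.96, 8.05 and 8.00 at 24 h after H2O2, and 7.56, 7.55 and 7.58 at 24 h after NCS. The 3 groups did not overlap, and the differences from untreated cells were −1.40 and −1.84 ± 0.05 (limma, adjusted p = 3.27e-14 and 1.09e-15). SKA2 was 10.64, 10.56 and 10.58 in untreated libraries, and 9.99, 9.98 and 9.89 and 10.04, 10.08 and 10.02 at 24 h after H2O2 and NCS. These differences were smaller, −0.64 and −0.55 ± 0.04. SKA3 differed by −1.63 and −1.61, KNTC1 by −1.12 and −1.05 and ZWILCH by −0.88 and −0.90.

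Among the checkpoint genes CDC20 fell the most, and its fall after NCS at 24 h was the deepest of the 39. The untreated libraries had 11.63, 11.73 and 11.79. At 4 h CDC20 was 11.34, 11.37 and 11.29 after H2O2 and 10.68, 10.66 and 10.56 after NCS. At 8 h it was 10.32, 10.90 and 10.45 after H2O2 and 10.06, 10.13 and 10.14 after NCS, and at 24 h 9.71, 9.51 and 9.50 after H2O2 and 9.08, 9.12 and 9.21 after NCS. Every NCS library was below every H2O2 library of the same time, and within each agent every later group lay below the earlier one. The differences from untreated cells were −0.38, −1.16 and −2.14 ± 0.10 after H2O2 and −1.08, −1.61 and −2.58 ± 0.10 after NCS (limma, largest adjusted p = 0.00334).

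All 6 checkpoint genes among the members were lower after both agents at 24 h, with medians of −1.80 after H2O2 and −2.08 after NCS, and 5 of them by over 1. At 4 h after NCS all 6 were lower as well, with a median of −1.0. BUB1 and BUB1B, kinase-family proteins that sit on unattached kinetochores, were lower by −2.23 and −2.3 at 24 h after NCS. TTK, the kinase that starts checkpoint signalling, was lower by −1.93, and MAD2L1, which binds and holds CDC20, by −1.56. BUB3, the partner of both BUB proteins, was the smallest. It was 12.49, 12.45 and 12.49 in untreated libraries, 12.00, 11.95 and 12.04 at 24 h after H2O2 and 11.96, 11.97 and 11.98 at 24 h after NCS. Its libraries did not overlap the untreated ones, and it was lower by −0.48 and −0.51 ± 0.02 (limma, adjusted p = 6.81e-12 and 3.36e-12).

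The passenger complex and the shugoshins fell as a group at 24 h, all 6 by over 1 after both agents, with medians of −1.89 after H2O2 and −2.11 after NCS. AURKB is the kinase that releases wrong attachments, INCENP, CDCA8 and BIRC5 hold it in place, and SGOL1 and SGOL2 protect cohesion at the centromere. CDCA8 was 10.65, 10.65 and 10.71 in untreated libraries. After NCS it was 9.29, 9.20 and 9.27 at 4 h, then 9.12, 9.19 and 9.31 at 8 h, and by 24 h it was 8.11, 8.10 and 8.13. After H2O2 it was 9.84, 9.79 and 9.73 at the 4 h point, 9.45, 9.97 and 9.56 at the 8 h point and lastly 8.50, 8.50 and 8.59 at 24 h. All NCS libraries lay below the H2O2 libraries of the same time, and the differences from untreated cells at 24 h were −2.55 and −2.14 ± 0.09 (limma, adjusted p = 3.82e-14 and 4.09e-13).

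INCENP, the scaffold of the complex, had the smallest difference of the 6 at 24 h after NCS, but it fell early. It was 10.75, 10.81 and 10.83 in untreated libraries and 9.87, 9.83 and 9.84 at 4 h after NCS. At 8 h it was 10.04, 10.05 and 9.98, and at 24 h 9.28, 9.40 and 9.35. With H2O2 it was 10.06, 10.08 and 9.93 at 4 h, then 9.82, 10.17 and 9.83 at 8 h, and by 24 h it was 9.44, 9.37 and 9.34. The 8 h NCS libraries lay above the 4 h ones, by 0.17 ± 0.07, which was not called (limma, adjusted p = 0.108). That SE also came from all 7 groups. The SD of INCENP was 0.02 and 0.042 in these NCS groups and 0.2 at 8 h after H2O2. BIRC5 took the opposite course after H2O2. It was 11.32, 11.37 and 11.36 in untreated libraries, 11.22, 11.32 and 11.26 at the 4 h point, 10.58, 10.82 and 10.71 at the 8 h point and lastly 9.56, 9.33 and 9.46 at 24 h. Its difference of −0.08 at 4 h was not called (limma, adjusted p = 0.246), and at 24 h it was −1.90. After NCS BIRC5 was 10.84, 10.85 and 10.80, then 10.21, 10.31 and 10.35, then 9.25, 9.27 and 9.31. SGOL2 was 9.72, 9.75 and 9.73 in untreated libraries, 8.30, 8.27 and 8.36 at 4 h after NCS and 8.90, 8.89 and 8.86 at 4 h after H2O2, with no overlap, and by 24 h it had fallen by −2.23 and −1.89. AURKB was lower by −2.14 and −2.0 and SGOL1 by −1.5 and −1.44.

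**Figure D4:**
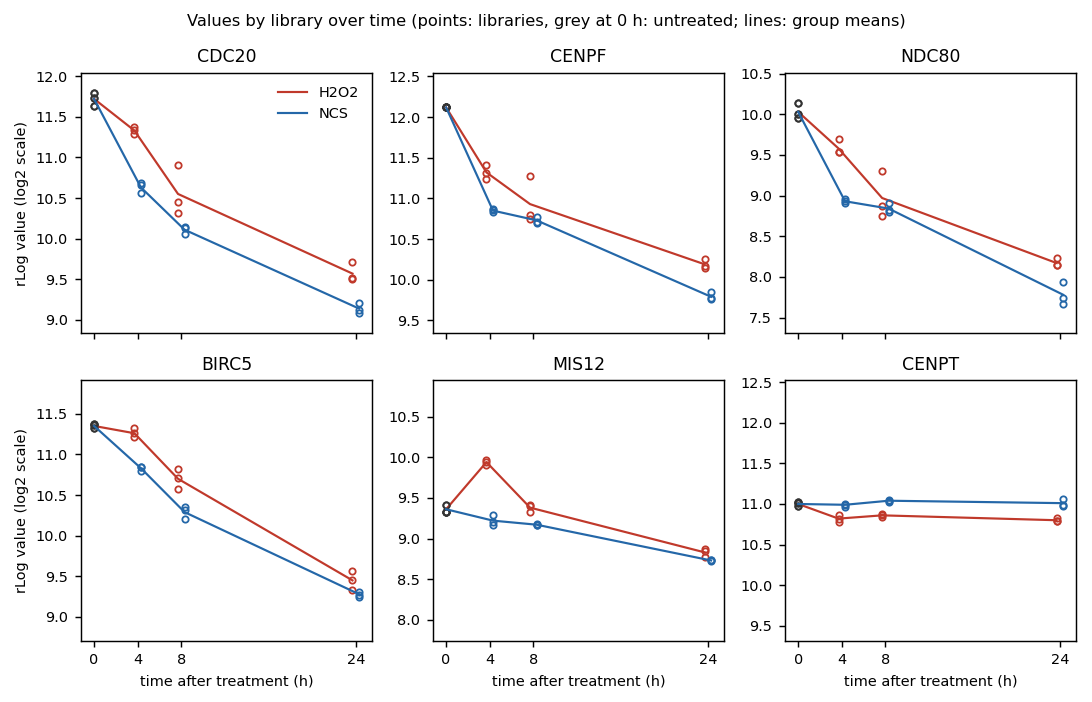
rLog values (log2 scale) of 6 members over time, with each library as a point, the untreated libraries at 0 h, and lines through the group means of H2O2 (red) and NCS (blue). Points of the treatments are shifted sideways a little. CDC20, CENPF, NDC80 and BIRC5 fell through 24 h, MIS12 rose to a mean of 9.94 at 4 h after H2O2 before falling, and CENPT stayed between 10.78 and 11.06.

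The comparison of H2O2 with NCS at the same time asks whether the agents differ, and its differences do not involve the untreated means, although all 7 groups set the spread behind its p-values. At 4 h, 23 members were higher after H2O2 and 2, CENPT and KNTC1, were lower. Of all genes 26.3% were higher and 18% lower. The median difference of the members was 0.17, and that of all genes 0.0051. All 23 had fallen after NCS. The largest differences were those of MIS12 at 0.72 ± 0.03, CDC20 at 0.70 ± 0.10 and NDC80 at 0.65 ± 0.10 (limma, adjusted p = 1.58e-11, 1.07e-05 and 3.01e-05), and their libraries did not overlap. For MIS12 the H2O2 libraries were above the untreated ones, whereas for CDC20 and NDC80 both groups were below. All 6 checkpoint genes were higher after H2O2 at 4 h (median 0.40), as were 5 of the 6 passenger and shugoshin genes (median 0.33) and 4 of the 12 inner kinetochore genes (median 0.08). The calls behind these counts were not all firm. That of INCENP (0.17 ± 0.07) was lost in 12 of the 21 fits that left out 1 library, namely untreated replicate 2 or 3, H2O2 4 h replicate 1 or 2, H2O2 24 h replicate 2 or 3, any NCS 4 h library, NCS 8 h replicate 1 or 2 or NCS 24 h replicate 3 (adjusted p between 0.0501 and 0.152). That of CENPQ (0.15 ± 0.05) was lost without H2O2 4 h replicate 1 or 2 or NCS 4 h replicate 1 (0.0591 to 0.2). The call for KNTC1 (−0.13, adjusted p = 0.0387) was lost without H2O2 4 h replicate 1 or 3 and without NCS 4 h replicate 1 or 3, with adjusted p between 0.0949 and 0.108. DSN1 lost its call without H2O2 4 h replicate 2 or 3 or any NCS 4 h library (0.0627 to 0.108), and AURKB without NCS 4 h replicate 1 (0.0582). In other settings INCENP lost its call without the trend (0.0634) and CENPQ in a fit of the groups compared (0.11). KNTC1 lost its call with quantile normalization (0.0909) and without the trend (0.0507).

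At 8 h the agents differed less evenly. There 13 members were higher and 8 lower after H2O2, with 18.7% of all genes higher and 15.4% lower, and the median was 0.04. Without H2O2 8 h replicate 2, 10 were higher and 13 lower, with 20.0% and 16.0% of all genes. The largest differences were those of CDC20 (0.45 ± 0.10), CDCA8 (0.45 ± 0.09), BIRC5 (0.42 ± 0.06) and SGOL2 (0.42 ± 0.09), all higher after H2O2. Without that replicate they were still called, at 0.275, 0.296, 0.358 and 0.256, and in a fit of these groups alone CDC20, CDCA8 and SGOL2 were not (adjusted p = 0.0662, 0.0575 and 0.0688). The 8 lower genes were CENPI, CENPP, CENPT, DSN1, KNTC1, NSL1, SPC24 and ZWINT, between −0.15 and −0.34. In the KMN network 4 genes were lower and 1 higher, and in the checkpoint 5 were higher and none lower. Without that replicate these counts were 5 lower and 1 higher, and 3 higher and none lower, BUB1 (0.107, adjusted p = 0.214) and TTK having lost their calls. BUB1B was the checkpoint gene not called (0.10 ± 0.11, limma, adjusted p = 0.576).

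At 24 h fewer members were called than at 4 or 8 h, as was true of all genes. After H2O2, 12 were higher and 1, CENPT, lower, with 11% of all genes higher and 10.9% lower, and the median was 0.10. By mean, 32 of the 39 had the lower value after NCS. SKA1 and CDC20 differed by 0.44 ± 0.05 and 0.44 ± 0.10, and CDCA8 by 0.42 ± 0.09 (limma, adjusted p = 1.66e-06, 0.00268 and 0.00161), and their libraries did not overlap. The genes BIRC5, CDC20, CDCA8, CENPN, MIS12, SGOL2, SKA1 and TTK were higher after H2O2 at all 3 times. Without H2O2 8 h replicate 2, the 8 h calls of TTK (0.078, adjusted p = 0.247) and SKA1 (0.118, adjusted p = 0.053) were lost, and that of TTK also without any one NCS 8 h library (adjusted p between 0.0727 and 0.0941). At 24 h the call of BIRC5 was lost without either of H2O2 24 h replicates 1 and 3 or NCS 24 h replicates 1 and 2, that of SGOL2 without H2O2 24 h replicate 3 (adjusted p = 0.0568) or NCS 24 h replicate 2 (0.0538), and that of MIS12 (0.10 ± 0.03) without H2O2 4 h replicate 2, H2O2 24 h replicate 2 or 3 or any one library of the NCS 8 h and NCS 24 h groups (adjusted p between 0.0506 and 0.172).

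**Figure D5:**
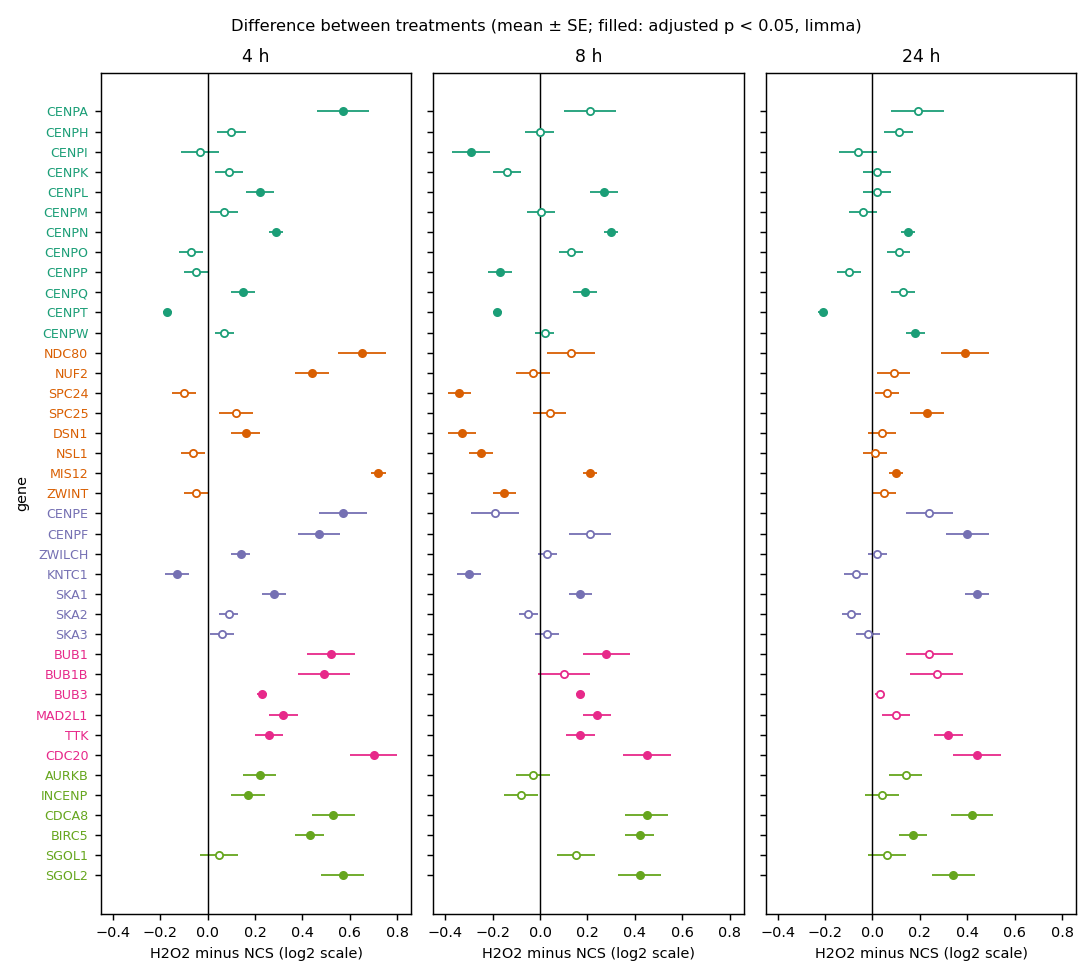
Difference of H2O2 from NCS (log2 scale, mean ± SE of the limma fit) for each member at 4, 8 and 24 h, coloured by role, with filled points where the adjusted p-value was under 0.05. Points lie mostly right of 0 at 4 h, with MIS12 at 0.72, spread to both sides at 8 h, and lie near 0 or to the right at 24 h except CENPT at −0.21.

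The steps between times show when the genes moved. From 4 to 8 h after H2O2, 30 members fell, with 27.7% of all genes falling, by a median of −0.31. Without H2O2 8 h replicate 2, 34 fell, by a median of −0.43. Over the same interval after NCS, 15 fell, with 7.5% of all genes falling, by a median of −0.14, and 24 were not called. Across the alternative settings the H2O2 count ran from 23 to 31 and the NCS count from 15 to 20. With each library left out in turn they ran from 28 to 34 and from 13 to 21. Of the 9 genes lower by over 1 at 4 h after NCS, 8 were not called in this step, CDC20 (−0.52 ± 0.10, limma, adjusted p = 0.00106) being the exception. By mean, BUB1B (9.55 to 9.23), SGOL2, CENPF, NDC80 and CDCA8 were still lower at 8 h than at 4 h. CENPA, CENPE and TTK were higher by mean. From 8 to 24 h, 37 members fell after H2O2 and 38 after NCS, with 23.2% and 15.0% of all genes falling, by medians of −0.71 and −0.76. CENPT was called in neither, and NSL1 fell after NCS (−0.22) and not after H2O2 (0.03).

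A member's course can be put as the share of its 24 h difference already present earlier, for genes with a 24 h difference over 0.5. At the median, 36 genes after H2O2 had reached 19.9% at 4 h and 46.6% at 8 h, and 37 genes after NCS had reached 30.0% and 45.7%. CENPE (71.9%), CENPA (68.1%), INCENP (65.2%), BUB3 (64.5%) and SGOL2 (63.8%) were the earliest after NCS at 4 h, and CENPM (1.13%), CENPH (1.52%) and ZWINT (2.78%) the latest. After H2O2 the highest shares at 4 h were those of INCENP (54.6%), TTK (52.9%) and CENPE (47.3%). Across the 7 group means, Pearson's correlation of a member with the median profile of the set had a median of 0.965, and CENPT (0.186), NSL1 (0.720) and MIS12 (0.782) were the lowest. This describes 7 means that share 3 untreated libraries.

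Whether a step differed between the agents was tested as the H2O2 step minus the NCS step. From 4 to 8 h the step was lower after H2O2 for 7 members, CENPE, DSN1, INCENP, MIS12, NDC80, NUF2 and SPC24, and higher for none. These 7 are 17.9% of the members, and 18% of all genes were lower and 14.7% higher. The members' share was thus near that of all genes, which include genes with values near 0 and were not matched for level. The count depended on the setting, with 13 members called with library medians aligned, 15 with quantile normalization and 17 among genes with a mean value of at least 5. At an unadjusted p under 0.05, 16 were lower and 1 higher. No share of all genes is given at that limit or in those settings, so these counts cannot be set against a background. Without H2O2 8 h replicate 2, 22 members were lower, with 19.0% of all genes. From 8 to 24 h the step was lower after H2O2 for 4 members and higher for 7, with 11.8% of all genes lower and 9.62% higher. Without that library, 1 was lower and 17 higher, with 14.2% and 11.8% of all genes.

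Genes that work beside these members were taken from lists given whole by function. Of 18 other kinetochore and checkpoint genes, 16 were lower at 24 h after H2O2 and 17 after NCS, with a median of −0.53 in each, beside −1.36 and −1.39 for the members. The shares of all genes tested that were lower at that time were 19.9% and 18.4%. HJURP, the chaperone that deposits CENPA, was 10.16, 10.20 and 10.22 in untreated libraries, 8.94, 8.92 and 9.05 at 4 h after NCS and 7.71, 7.49 and 7.83 at 24 h. It was lower by −1.22 and −2.52 ± 0.10 at these times, and by −1.15 and −2.21 at 4 and 24 h after H2O2. CASC5, also known as KNL1, the third part of the KMN network, was lower by −2.14 ± 0.08 after NCS and −1.87 ± 0.08 after H2O2 at 24 h. MAD2L1BP, which helps to silence the checkpoint, was 9.11, 9.10 and 9.24 in untreated libraries and 9.08, 9.11 and 9.13 at 24 h after NCS, groups that overlapped (−0.04 ± 0.05, limma, adjusted p = 0.629).

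The anaphase-promoting complex is the ubiquitin ligase that CDC20 activates. Of 18 genes of the complex, its activators, conjugating enzymes and inhibitor, 12 were lower at 24 h after either agent and 2 higher after H2O2 and 3 after NCS, with a median of −0.19 in each, and 3 were lower by over 1. Over all genes tested, 19.9% were lower and 20.2% higher after H2O2, and 18.4% and 19.6% after NCS. Lower by over 1 were 1.29% and 1.37%. The rises, 11.1% and 16.7% of the 18, were thus under the share of all genes. The falls were deep for UBE2C, its conjugating enzyme (−2.13 ± 0.08 after NCS and −1.69 ± 0.08 after H2O2), and for FBXO5, its inhibitor (−1.68 and −1.69 ± 0.06). ANAPC2, a core subunit, differed by 0.01 ± 0.04 after NCS (limma, adjusted p = 0.95). Of 12 genes of cohesin, its regulators, securin and separase, all 12 were lower at 24 h after both agents, with medians of −0.62 and −0.70, beside the same 19.9% and 18.4% of all genes. ESPL1, the protease separase, was lower by −1.86 ± 0.07 after NCS and −1.58 ± 0.07 after H2O2. CDCA5, known as sororin, was not called at 4 h after either agent (0.04 and −0.04) or at 8 h after H2O2 (−0.01) and was lower by −1.57 and −1.74 ± 0.04 at 24 h after H2O2 and NCS. NIPBL, the cohesin loader, was lower by −0.12 ± 0.04 after NCS (limma, adjusted p = 0.0126).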

How the data were processed

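RNA of 21 hTERT-HPNE libraries (TruSeq Stranded mRNA kit, paired-end reads) was aligned by the authors with HISAT2 and counted with htseq-count in Galaxy. The deposited values are log2 values that the authors made with the rLog transformation of DESeq2, which normalizes for library size and shrinks differences of genes with few reads. hg19 is named among the builds in the submitters' processing notes, and the annotation and the strand setting are not given in the sources used here. No counts were used, and depth is unknown. Whether the sequenced cells carried the study's reporters is not stated.

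Of 23368 genes listed, 3674 were at 0 in every library and were left out. The other 19694 were tested with limma (version 3.58.1, R 4.3.3). All 7 groups entered a single fit whose prior variance followed the mean value, and p-values were adjusted by the Benjamini-Hochberg method over every gene tested. limma replaced the count test of the study because the values are not counts. There were 6 contrasts with untreated cells, 3 between agents, 4 between times and 2 of steps between agents. The script was tested on simulated data. For single values, two-sided exact permutation tests with 3 libraries against 3 give no p below 0.1. Libraries were grouped by the labels, and p-values measure the spread between biological replicates. No 2 libraries held the same values.

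The members and the gene lists were chosen with earlier results of these data known. Values per library were given for the largest and the smallest difference of each role at 24 h after NCS, for members that rose, and for the 3 largest differences between agents at each time, and of each related list the 2 largest and the smallest were named. BIRC5, SGOL2, CENPE and CENPM, named with their values for their courses, and DERL2 and MAD1L1 were added after values were seen.

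Promoters came from RefSeq (GRCh38.p14) and exon overlaps from GENCODE annotation of GRCh38, matched by gene symbol, and no coordinate was moved between builds. Both strands were searched. Python 3.11.15 with pandas 2.3.3, numpy 2.4.6, scipy 1.17.1 and matplotlib 3.10.9 made the summaries. The alternatives were quantile normalization, library medians aligned, only genes whose mean was at least 5, a limit of 0.58, a fit of the groups compared, a replicate block, no trend, a promoter window of 100 bases and each library left out in turn.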

Additional observations from a re-analysis of the deposited data

Results flagged for a closer look

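The step from one time to the next differed between the agents for some members. The differences are the H2O2 step minus the NCS step, from the limma fit, with adjusted p-values over all genes tested. From 4 to 8 h the difference was −0.76 ± 0.14 for CENPE (adjusted p = 0.00036), −0.52 ± 0.05 for MIS12 (3.5e-07), −0.52 ± 0.14 for NDC80 (0.00787), −0.49 ± 0.08 for DSN1 (0.000131), −0.47 ± 0.10 for NUF2 (0.00192), −0.26 ± 0.10 for INCENP (0.0468) and −0.25 ± 0.07 for SPC24 (0.0139). For CENPE the NCS means at 4 and 8 h were 9.42 and 9.71, a step that was not called, while the H2O2 mean fell from 9.99 to 9.51, and for MIS12 the H2O2 mean fell from 9.94 to 9.38 while the NCS mean was 9.22 and 9.17. The call for INCENP was lost when any one library was left out (adjusted p between 0.0502 and 0.132), except H2O2 4 h replicate 3, H2O2 8 h replicate 2 and NCS 8 h replicate 3, and the other 6 calls passed in each of the 21 such fits.

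From 8 to 24 h the difference was positive, the fall being smaller after H2O2, for CENPE at 0.43 ± 0.14 (adjusted p = 0.0327), SPC24 at 0.41 ± 0.07 (0.000617), DSN1 at 0.37 ± 0.08 (0.00269), SKA1 at 0.27 ± 0.07 (0.00724), NSL1 at 0.25 ± 0.08 (0.0236), KNTC1 at 0.23 ± 0.07 (0.0189) and ZWINT at 0.20 ± 0.07 (0.0359). It was negative for CENPL at −0.25 ± 0.08 (0.0401), BIRC5 at −0.24 ± 0.08 (0.0332), CENPN at −0.15 ± 0.05 (0.0338) and BUB3 at −0.14 ± 0.03 (0.00517). With each of the 21 libraries left out in turn, the calls of SPC24, DSN1, SKA1 and BUB3 passed in every fit. Those of CENPE, ZWINT, BIRC5, CENPL and CENPN were lost in 7 to 9 fits (adjusted p between 0.0507 and 0.11), in each case without 1 of several libraries of the 4 groups compared. That of NSL1 was lost without H2O2 8 h replicate 3, H2O2 24 h replicate 2, NCS 8 h replicate 1 or NCS 24 h replicate 1 (0.0522 to 0.0607), and that of KNTC1 without NCS 8 h replicate 3 or NCS 24 h replicate 1 (0.0506 and 0.0512). Both sets of steps contain the H2O2 8 h group, in which replicate 2 stood above the other replicates for 35 of 39 members. Without it, 22 in place of 7 members differed from 4 to 8 h, with 19.0% of all genes lower and 15.4% higher (18.0% and 14.7% with it). From 8 to 24 h, 18 in place of 11 differed, with 14.2% and 11.8% of all genes (11.8% and 9.62% with it). Other settings also raised the first count with the library kept, to 15 with quantile normalization for one, and its part in these differences was not tested.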

How the results depend on the processing

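No call reversed its direction under any alternative. The counts of members lower than in untreated cells kept within 1.5 times their value in every alternative run. Of 409 calls of single genes, 3 were lost with library medians aligned, 12 with quantile normalization, 0 with a mean value of at least 5, 35 in a fit of the groups compared alone, 6 without the trend, and 37 in at least 1 fit that left out a library. With a limit of 0.58, 7 members were lower at 4 h after H2O2 (0 with a limit of 1) and 19 at 8 h (10 with a limit of 1). No shares of all genes are given beside the counts in this section. They show how the members' calls moved and not how unusual the counts are. In the fit of the groups compared, 5 members were higher and 5 lower between H2O2 and NCS at 8 h, and 4 differed in the step from 8 to 24 h. At 4 h 1 member was lower after H2O2 than after NCS with quantile normalization and without the trend (2 in the fit reported), and at 24 h 2 were lower with medians aligned (1 in the fit reported). The step from 4 to 8 h differed for 13 members with medians aligned, 15 with quantile normalization and 17 with a mean value of at least 5 (7 in the fit reported, 10 with the replicate block, and 6 without the trend or in the fit of the groups compared). The share of member promoters with CCAAT was 44.7% in 100 bases, since the window is shorter. For the other differences the cause was not tested.

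With each library left out in turn, members lower after H2O2 than after NCS numbered 1 to 2 at 4 h and 6 to 13 at 8 h, members whose step from 4 to 8 h differed 6 to 22, and from 8 to 24 h 6 to 18. The highest count of each of the last 3, namely 13, 22 and 18, came without H2O2 8 h replicate 2. For the step from 8 to 24 h, 6 remained without H2O2 24 h replicate 2 or NCS 24 h replicate 1, and 7 without H2O2 8 h replicate 3, H2O2 24 h replicate 3 or NCS 8 h replicate 1. At 4 h the count of 1 came without H2O2 4 h replicate 1 or 3 or NCS 4 h replicate 1 or 3.

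The groups share replicate numbers, and libraries with the same number deviated from their group means with a mean correlation of 0.0274 (−0.149 to 0.213, over 0.1 in 12 of 63 pairs). For other pairs the mean was −0.0137, with 7 of 126 over 0.1. This mean is no separate reference, because deviations within a group sum to 0. Between the H2O2 8 h and NCS 8 h groups the mean for same numbers was highest, 0.14. Whether the numbers pair the samples was thus not settled, and the main fit did not pair them. With the replicate block 38 members were lower at 24 h after NCS and 39 after H2O2, as without it, and 1 call was lost, the difference of MIS12 between agents at 24 h (adjusted p = 0.0545). Depth could not be examined in values without counts.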
